A study of Mus musculus with 24 samples.

Results

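Smarcb1, Smarce1, Smarcd1, Smarcd2, Smarcd3, Bcl7a, Bcl7b and Bcl7c encode subunits of BAF complexes and are grouped here as core and Bcl7 subunits. These 8 genes were chosen by symbol from the 55177 genes to which the measured transcripts belong, and the estimated counts of all their transcripts were summed in each of 24 RNA sequencing libraries from cultured mouse cortical neurons. All 8 passed the low-count filter at both ages studied. The series examined how depolarization and the BAF subunit Smarcc2 shape expression in these cells.

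All cultures came from cortex taken at embryonic day 16.5, and per the labels' protocols the cortex of each embryo was a biological replicate. Every culture was silenced overnight with 1 µM tetrodotoxin, which blocks sodium channels, and 100 µM D-AP5, which blocks NMDA receptors. For depolarization, 50 mM KCl was added for 30 min. After 7 days in vitro (DIV7), cultures labelled wild type, with no introduced construct and 0.1% DMSO, were sequenced at rest (2 libraries) and after KCl (2 libraries). After 18 days (DIV18), cultures carried non-targeting CRISPR guide RNAs (NT; 2 at rest, 2 with KCl) or guide RNAs against Smarcc2 (knockout, KO). The knockout cultures also received an empty vector (3 and 3), wild-type Smarcc2 (WT from here on; 2 and 3), Smarcc2 with the S586E substitution (3, rest only) or with S586A (2, KCl only). RNA was poly(A)-selected at DIV7 but depleted of ribosomal RNA at DIV18, so age, RNA selection and genetic manipulation cannot be told apart. Primary cortical cultures hold cells besides neurons, and fewer cells of a type and less RNA per cell cannot be told apart in bulk RNA.

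BAF complexes use the energy of ATP to move or eject nucleosomes. Smarcb1 is a core subunit that contacts the nucleosome, and Smarce1 is a core subunit with a DNA-binding HMG domain. Smarcd1, Smarcd2 and Smarcd3 are paralogs that take the same place in a complex, and Smarcd3 is the form known from heart, muscle and neurons. Bcl7a, Bcl7b and Bcl7c are small paralogs that sit near the ATPase.

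The DIV7 libraries held between 24536056 and 30135576 estimated counts each, and the DIV18 libraries between 14510199 and 24024959. The targeted gene Smarcc2 stood at 265.1 and 236.9 CPM (counts scaled to the same library size) in the 2 resting NT libraries and between 47.12 and 64.07 CPM in the 3 resting vector libraries. All 10 neuronal marker genes were detected in every group. The depolarization genes Fos, Fosb, Npas4 and Egr1 all rose with KCl at DIV7 and in the DIV18 response averaged over NT, vector and WT. In NT alone Fosb was the 1 of these 4 called.

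Some of the counts below fall on transcripts that GENCODE classes as retained introns, which keep part or all of an intron of the coding transcript. Some stretches of Smarcd1 and Smarcd2 that set these forms apart are shown because the summed counts of such forms of each gene are compared between rest and KCl. Those of Smarcd2-202 and Smarcd2-208, and intron 12 in Smarcd2-207, also enter the sum and are not shown. The stretches shown are written 5′ to 3′ on the gene's strand, with the intron's first or last pair of bases in capitals where the stretch reaches it.
Smarcd1 intron 2, its last 106 bases, held by Smarcd1-205 (chr15:99703485-99703590, GRCm38, + strand): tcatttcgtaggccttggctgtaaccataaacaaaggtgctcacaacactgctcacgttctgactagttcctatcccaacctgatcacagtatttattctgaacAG
Smarcd1 intron 11, its first 300 bases, held by Smarcd1-207 (chr15:99711216-99711515, + strand): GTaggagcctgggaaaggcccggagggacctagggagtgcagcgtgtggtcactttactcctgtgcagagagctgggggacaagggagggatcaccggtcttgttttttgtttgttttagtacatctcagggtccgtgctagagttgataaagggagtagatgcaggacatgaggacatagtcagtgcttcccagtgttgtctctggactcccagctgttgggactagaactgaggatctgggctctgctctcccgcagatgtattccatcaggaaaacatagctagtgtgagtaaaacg
Smarcd2 intron 5, its last 88 bases, held by Smarcd2-204 (chr11:106265984-106266071, - strand): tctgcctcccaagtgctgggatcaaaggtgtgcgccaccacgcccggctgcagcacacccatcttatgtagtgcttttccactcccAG
Smarcd2 intron 8, all 145 bases, held by Smarcd2-207 (chr11:106265038-106265182, - strand): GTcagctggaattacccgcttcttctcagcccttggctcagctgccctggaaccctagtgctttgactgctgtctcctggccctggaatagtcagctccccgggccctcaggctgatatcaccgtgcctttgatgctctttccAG
All 4 introns lie between coding exons of the leading coding transcript. None of the 31-base words of the Smarcd1 stretches or of Smarcd2 intron 8 occurs in an annotated transcript of another gene, whereas 19.0% of those of the Smarcd2 intron 5 stretch do.

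Levels were compared between genes in TPM, which are scaled by transcript length and to the same total in each library. With all annotated forms summed, Smarce1 was the most abundant of the 8 at DIV7, at 108.8 ± 8.70 TPM (SD, n = 4). Its libraries lay above those of every other member. Smarcb1 (77.85 ± 3.92 TPM), Smarcd3 (72.19 ± 10.9 TPM) and Smarcd1 (68.88 ± 13.9 TPM) followed, and neighbours in this order overlapped, down to Bcl7a. Bcl7a (50.6 ± 6.03 TPM) and Bcl7c (47.77 ± 2.60 TPM) also overlapped each other. Bcl7b (26.07 ± 2.41 TPM) lay below them and Smarcd2 (11.31 ± 4.99 TPM) was lowest, each without overlap with its neighbours.

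At DIV18 every member was lower in TPM than in any DIV7 library, and each member's range overlapped that of the next in order. Smarcd1 (28.71 ± 2.68 TPM, n = 20) and Smarcd3 (27.97 ± 3.89 TPM) led, and Smarcd2 was again lowest (4.756 ± 0.998 TPM). With all forms summed, Smarce1 moved from the first to the fifth place (13.97 ± 2.02 TPM) and Bcl7c from the sixth to the seventh (9.55 ± 2.15 TPM). Mean CPM, normalised separately at each age, did not fall for every member. Pooled over resting and KCl libraries, it was higher at DIV18 for Smarcd1 (100.7 at DIV7 and 103.1 at DIV18), Smarcd2 (7.94 and 11.96) and Bcl7b (15.49 and 20.93). At rest alone Smarcd1 averaged 111.1 CPM at DIV7 and 110.0 CPM in NT at DIV18, so its direction depends on the KCl libraries. Resting Smarcd2 averaged 10.88 and 12.07 CPM, and resting Bcl7b 17.17 and 19.97 CPM. The pooled mean was lower at DIV18 for Smarce1 (103.0 and 36.1), Smarcb1 (68.37 and 38.47), Bcl7c (62.64 and 14.78), Smarcd3 (53.08 and 49.23) and Bcl7a (125.2 and 112.8). Because both scales are relative and the RNA was selected differently, these are descriptions with no test.

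**Figure D1:**
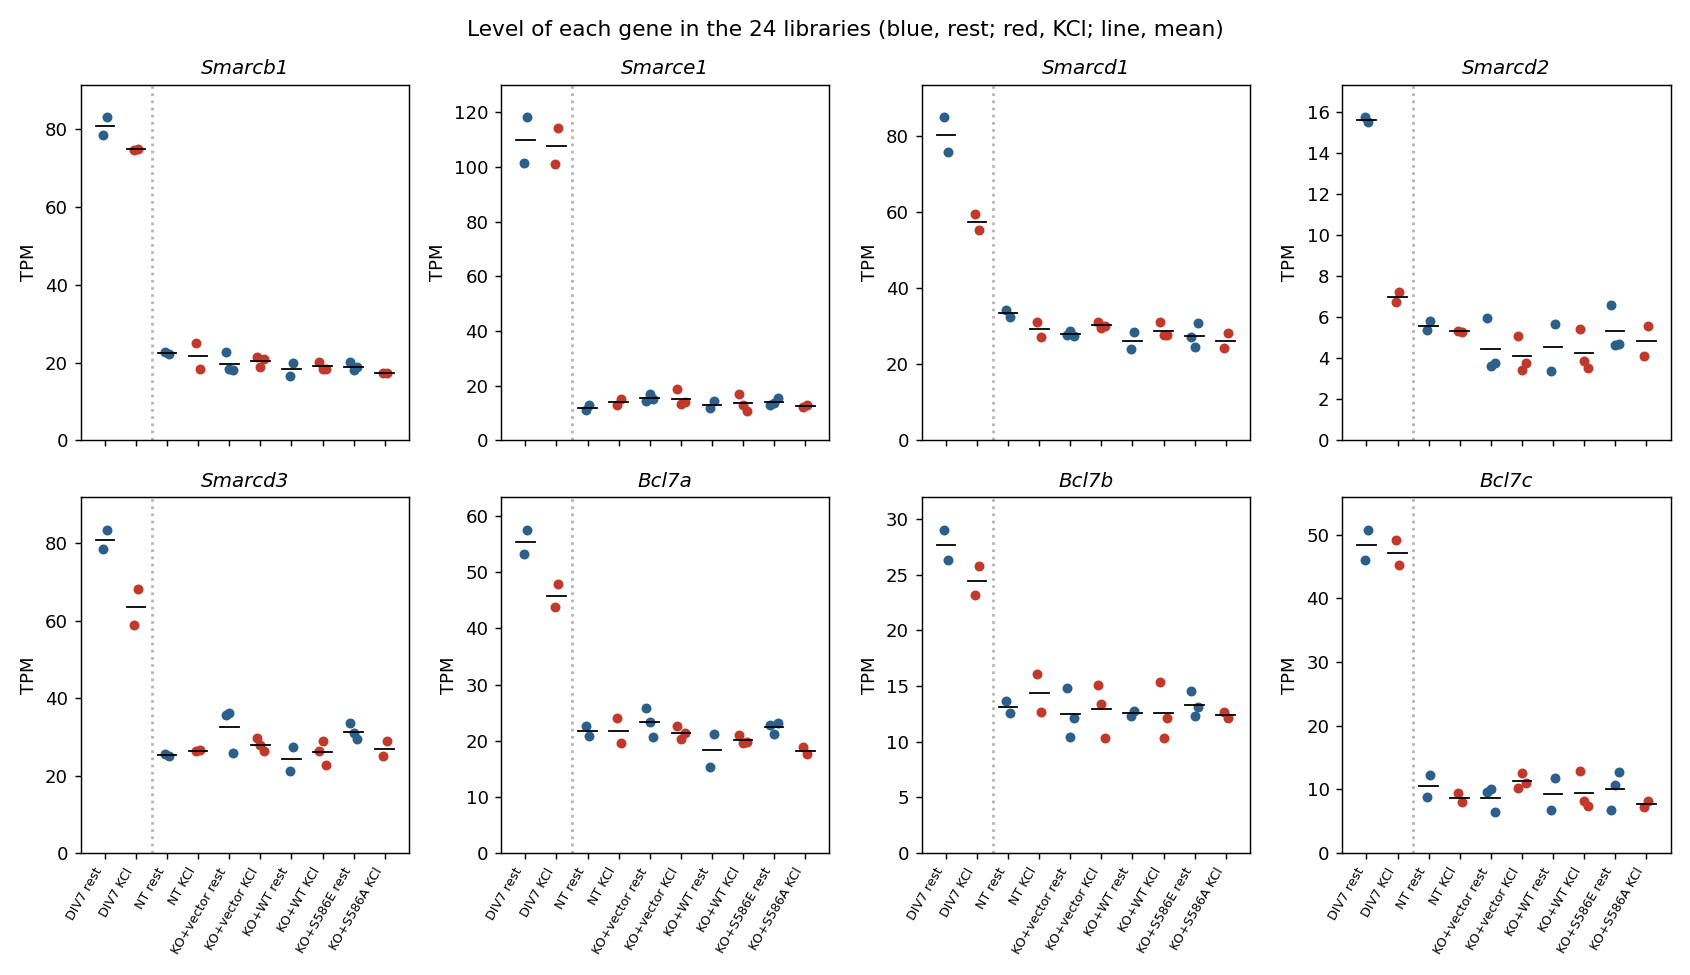
TPM of each of the 8 genes (vertical axis, from 0) in the 24 libraries by group (horizontal axis); points are libraries, blue at rest and red with KCl, and short lines are group means. For each gene the 4 DIV7 libraries lie above all 20 DIV18 libraries, and Smarcd2 in the KCl libraries at DIV7 (6.736 and 7.239 TPM) lies near the DIV18 range.

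Within the Smarcd family the shares, pooled over states and constructs, were close at both ages. Smarcd1 supplied 45.2% ± 2.71 of the family's TPM at DIV7 and 46.9% ± 3.75 at DIV18 (SD, n = 4 and 20), and Smarcd3 47.7% ± 3.45 and 45.4% ± 3.80. Smarcd2 supplied 7.1% ± 1.94 and 7.7% ± 1.30, although over coding transcripts alone its share was 3.5% ± 1.23 at DIV7 and 6.7% ± 0.81 at DIV18. Single groups differed from these pooled means. At DIV7 Smarcd2 averaged 8.8% at rest and 5.5% with KCl. At DIV18 Smarcd1 and Smarcd3 averaged 52.0% and 39.2% in resting NT, and 43.4% and 49.8% in resting vector. Within the Bcl7 family, Bcl7c supplied 38.5% ± 2.74 at DIV7 and 21.8% ± 3.59 at DIV18, with no overlap between the ages. Bcl7a supplied 40.6% ± 2.15 and 48.4% ± 2.95, and Bcl7b between 19.6% and 22.6% at DIV7 and between 23.9% and 35.8% at DIV18.

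The annotated forms behind these levels differed with age for some members. Of Smarce1, the main coding form made up 54.41% of the gene's TPM at DIV7 and 72.23% at DIV18. The noncoding form Smarce1-206 averaged 31.74 TPM at DIV7 (26.01 to 36.41) and 0.1637 TPM at DIV18 (0.0 to 1.224). In estimated counts Smarce1-206 averaged 196.3 at DIV7, beside 2548 for the main coding form. The main coding form of Smarce1 averaged 59.12 TPM at DIV7, and that of Smarcb1 64.57 TPM. The first place of Smarce1 at DIV7 thus holds for all forms summed and not for the main coding forms. Of Bcl7c, the form Bcl7c-202, which is annotated as a target of nonsense-mediated decay, averaged 14.14 TPM at DIV7 and 1.075 TPM at DIV18. Of Bcl7a, the form Bcl7a-203, annotated as noncoding, held 40.59% and 40.56% of the gene's TPM, and the main coding form held 56.62% and 57.42%. The main coding form held 82.94% and 77.26% of the TPM of Smarcb1, 73.91% and 90.93% of that of Smarcd1, and 66.89% and 83.67% of that of Smarcd3. Of Smarcd2 it held 29.86% at DIV7 and 70.61% at DIV18, and the retained-intron form Smarcd2-204 held 39.88% and 9.729%. In estimated counts Smarcd2-204 averaged only 28.52 at DIV7 and 5.725 at DIV18, beside 132.2 and 206.7 for the main coding form. The TPM shares of Smarcd2-204 thus rest on few counts.

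The first comparison asked how 30 min of KCl changed the 8 genes at DIV7. Smarcd2 and Smarcd1 fell, and the other 6 did not pass the test, which was edgeR's quasi-likelihood F test with Benjamini-Hochberg adjustment over all genes and a threshold of 0.05. Of all genes tested, 17.0% were called and 9.67% were called lower. The median log2 fold change of the 8 was -0.20, beside -0.0014 over all genes, and 7 of the 8 estimates were below 0.

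Smarcd2 stood at 10.91 and 10.84 CPM at rest and at 4.80 and 5.211 CPM with KCl. Both KCl libraries lay below both resting ones, a 2.17-fold difference (log2 fold change -1.12 ± 0.117 SE, edgeR adjusted p = 0.00173). It was called in all 10 alternative fits run for it. Smarcd1 stood at 114.6 and 107.6 CPM at rest and at 92.41 and 88.0 CPM with KCl, again without overlap. Its change was smaller (log2 fold change -0.30 ± 0.0548 SE, edgeR adjusted p = 0.0124) and did not pass without resting replicate 1 (adjusted p = 0.0725).

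The third Smarcd paralog, Smarcd3, had a log2 fold change of -0.17 ± 0.0824 SE (edgeR adjusted p = 0.221). Bcl7a went from 128.9 and 141.5 CPM to 110.1 and 120.1 CPM, and Bcl7b from 17.54 and 16.8 CPM to 13.18 and 14.43 CPM. Neither pair of groups overlapped, but both narrowly missed the threshold (log2 fold changes -0.23 and -0.32, edgeR adjusted p = 0.0532 and 0.0587). Without a low-count filter both passed (adjusted p = 0.00129 and 0.0412), and Bcl7a also passed without KCl replicate 2 (0.031). Smarcb1 (-0.12), Smarce1 (0.05) and Bcl7c (-0.01) had adjusted p of 0.189, 0.722 and 0.906.

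Of 21 other BAF subunits, 2 were called higher and 2 lower at DIV7. Pbrm1 (0.21) and Arid1a (0.21), which belong to PBAF and canonical BAF respectively, rose, and Dpf2 (-0.47) and Bicra (-0.44), subunits of canonical and non-canonical BAF, fell (log2 fold changes, edgeR adjusted p from 0.00746 to 0.0401). Of the marker lists, 1 of 10 neuronal genes was called in each direction, and 1 astrocyte gene of 8 was called higher and 2 lower. The summed astrocyte markers ran from 532.8 to 597.8 CPM at rest and from 510.2 to 521.7 CPM with KCl, and their part in these results was not tested.

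**Figure D2:**
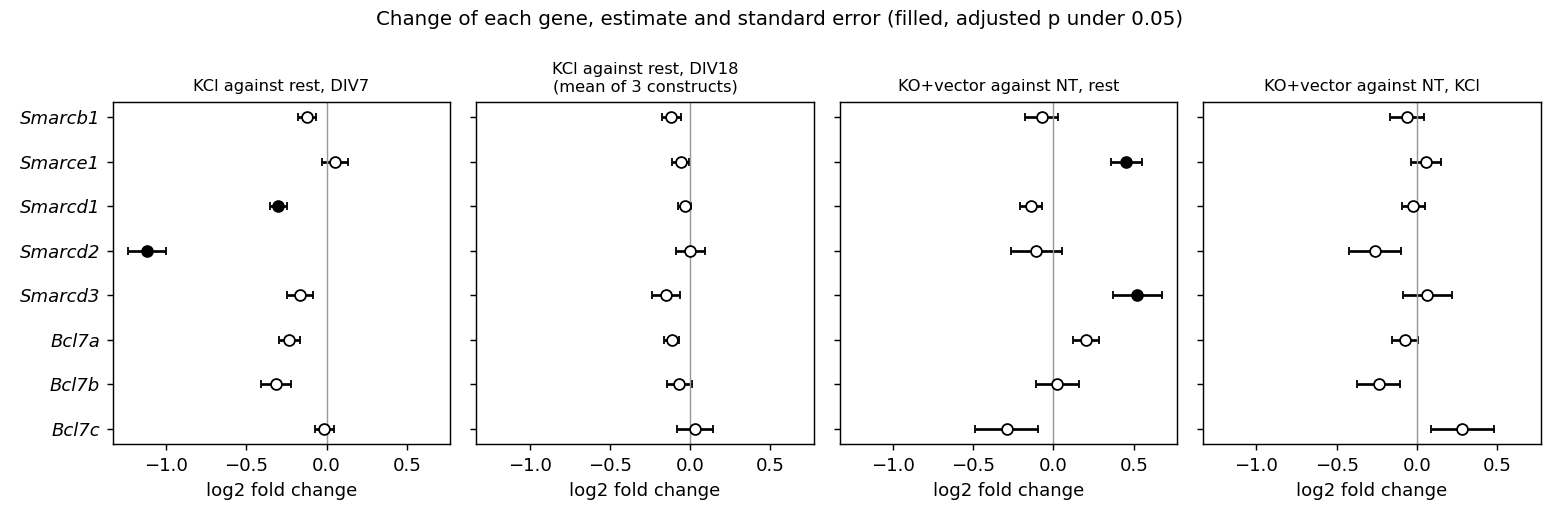
Log2 fold change (horizontal axis) of each gene (vertical axis) in 4 comparisons; points are estimates, bars are standard errors, and filled points passed an adjusted p of 0.05. Smarcd2 at -1.12 and Smarcd1 at -0.30 are the filled points for KCl at DIV7, Smarce1 at 0.45 and Smarcd3 at 0.52 those for the knockout at rest, and there are none for KCl at DIV18 or for the knockout under KCl.

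The fall at DIV7 was then divided between transcript forms. Tested transcript by transcript, none of the 36 member transcripts passed (edgeR), and 1.36% of all 53122 transcripts were called. Of the 36, 11 had an unadjusted p under 0.05, which was not counted over all transcripts, so no enrichment can be read from it. At gene level 4 members and 6257 of all 19822 genes had such a p. The lowest adjusted p was that of Bcl7a-202, a minor coding form (log2 fold change -1.86, adjusted p = 0.0544). The main coding form of Smarcd2 had a log2 fold change of -1.01 (adjusted p = 0.097), and that of Smarcd1 -0.17 (adjusted p = 0.213).

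Because several low p-values belonged to retained-intron forms, each gene was next split into the sum of its retained-intron transcripts and the sum of its other transcripts. This split was chosen after the values were seen. Of the 5 members with a tested retained-intron sum, 4 were called lower with KCl at DIV7, while 32.8% of all such sums were called lower and their median log2 fold change was -0.50. Of the 8 sums of other transcripts, 2 were called lower, beside 7.17% of all.

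The retained-intron counts of Smarcd1 were 105 and 77 at rest and 32 and 26 with KCl, or 3.684 and 3.102 CPM against 1.082 and 0.9474 CPM. The groups did not overlap, and the log2 fold change was -1.71 ± 0.240 SE (edgeR adjusted p = 0.00415). The other transcripts of Smarcd1 changed by -0.25 ± 0.0542 SE (adjusted p = 0.0203). For Smarcd2 both sums moved by a like amount. Its retained-intron counts were 89 and 58 at rest and 35 and 38 with KCl (log2 fold change -1.07 ± 0.261 SE, adjusted p = 0.0297), and its other transcripts changed by -1.12 ± 0.149 SE (adjusted p = 0.00353). The retained-intron sums of Smarcb1 (-0.72 ± 0.168 SE, adjusted p = 0.0248) and Smarcd3 (-0.51 ± 0.145 SE, adjusted p = 0.0487) were called, while their other transcripts, at -0.05 each, were not.

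These calls depended on the scaling. A version run first took the retained-intron sums alone and normalised them among themselves, which moved the median of all such sums to 0.013. In it Smarcd1 was the 1 member called (log2 fold change -1.21, edgeR adjusted p = 0.0134, with 17.9% of all sums called lower), and Smarcd2 (-0.56), Smarcb1 (-0.22) and Smarcd3 (-0.01) had adjusted p of 0.178, 0.412 and 0.981. With DESeq2 on the split table, Smarcd1 was likewise the 1 retained-intron sum called (adjusted p = 0.00456), and the other 3 had adjusted p from 0.124 to 0.168. Smarcd1 was called in all 9 alternatives of this fit, Smarcd2 in 5, Smarcb1 in 4 and Smarcd3 in 3. Leaving out 1 library ended the call of Smarcd2 (without resting replicate 1 or KCl replicate 1) and of Smarcb1 and Smarcd3 (without either resting library or KCl replicate 2), with adjusted p from 0.0652 to 0.173. The other transcripts of Smarcd1 lost their call without resting replicate 1 (0.112) or KCl replicate 2 (0.0897). For Smarcd3-205, the stretches of introns 10 and 13 share 100% of their 31-base words with another gene. Reads of unspliced RNA can also be assigned to these forms, which was not tested.

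**Figure D3:**
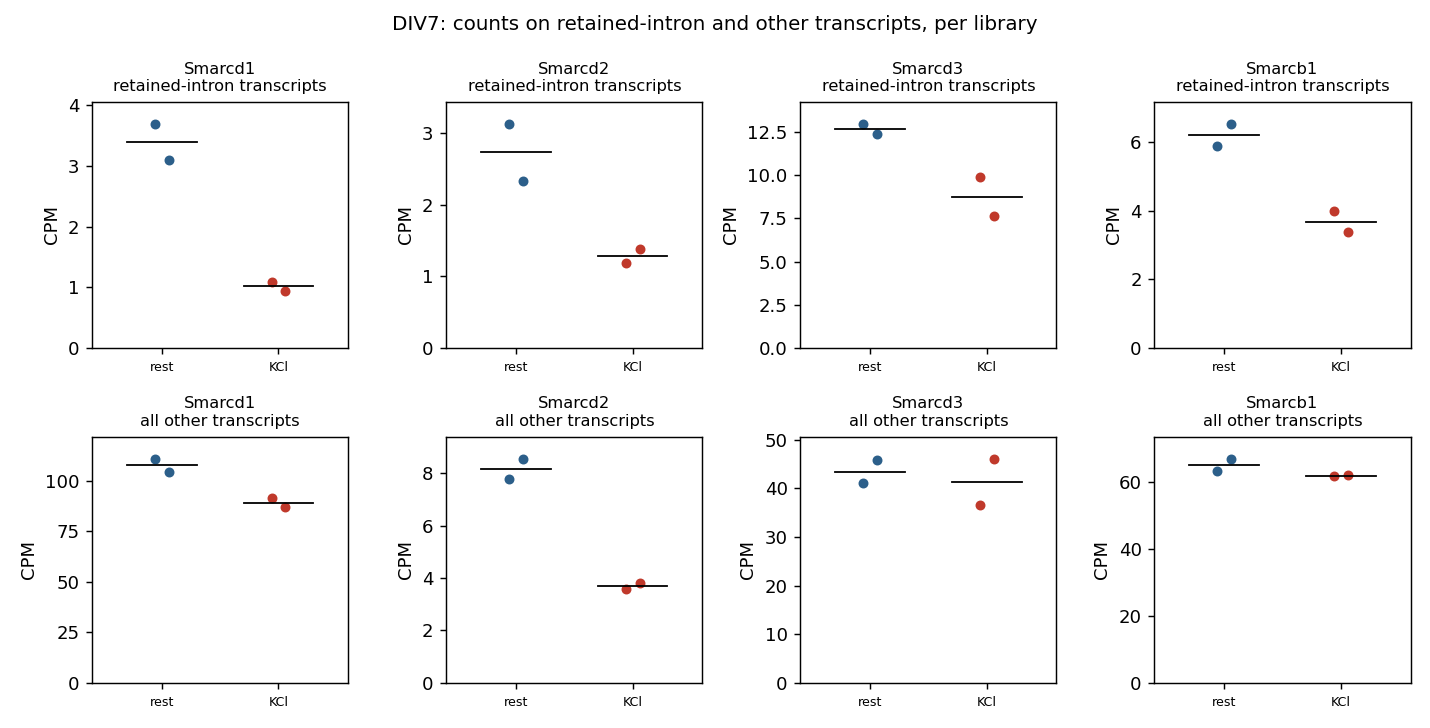
CPM (vertical axis, from 0) on retained-intron transcripts (upper row) and on all other transcripts (lower row) of 4 genes in the 2 resting (blue) and 2 KCl (red) libraries at DIV7; lines are means. The 4 genes are the members whose retained-intron sum was called. In the upper row the KCl libraries lie below the resting ones for each gene, and in the lower row the groups overlap for Smarcd3. Bcl7b was also tested and is not shown. Its retained-intron sums overlapped, at 0.7719 and 0.4431 CPM at rest and 0.6422 and 0.4373 CPM with KCl (edgeR adjusted p = 0.847).

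At DIV18 none of the 8 genes passed the test for KCl in any construct with both states (edgeR). In NT no member was called beside 0.00955% of all genes, in KO with vector none beside 0.0716%, in KO with WT none beside 0.043%, and in the average of these 3 responses none beside 0.449%. Unadjusted p-values under 0.05 were found for 0, 4, 0 and 1 members, beside 906, 2167, 1040 and 1664 of all 20940 genes. DESeq2 called none of the members, beside 13, 48, 26 and 146 of all genes in the same order. In the averaged response the 8 log2 fold changes ran from -0.15 (Smarcd3) to 0.03 (Bcl7c).

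Smarcd2, which had fallen by 1.12 at DIV7, showed 13.21 and 10.92 CPM in resting NT libraries and 14.31 and 11.79 CPM with KCl. These groups overlap, and the averaged DIV18 log2 fold change was 0.0027 ± 0.0922 SE. The difference between the DIV7 response and the NT response at DIV18 was tested in 1 fit of those 8 libraries. For Smarcd2 it was -1.24 ± 0.217 SE (edgeR adjusted p = 0.0233), the 1 member called, where 2.34% of all genes were called and 1.74% were lower. The call was lost with length offsets (adjusted p = 0.0533), with coding transcripts only (0.0572), without any single DIV7 library (0.0951 to 0.145) or without NT resting replicate 2 (0.0642). The activity genes Fos, Fosb and Egr1 also responded less in NT at DIV18 than at DIV7 (differences of 3.86, 4.83 and 3.46 on the log2 scale, edgeR adjusted p = 0.0178, 0.0058 and 0.000363). Npas4, the remaining activity gene, was not called for this difference. Its log2 fold change with KCl was 5.40 at DIV7 and 5.65 averaged over NT, vector and WT at DIV18. With KCl, Fos stood at 113.4 and 38.47 CPM in NT and at 597.9 and 618.4 CPM at DIV7. The part of this weaker response in the difference for Smarcd2 was not tested. The retained-intron sums of members were not called at DIV18, where 0.656% of all such sums and 0.328% of the sums of other transcripts were called. Per DIV18 library these sums held 0 to 60 counts for Smarcd1, 0 to 24 for Smarcd2, 23 to 114 for Smarcb1, 28 to 124 for Smarcd3 and 0 to 22 for Bcl7b. Without a low-count filter that of Bcl7b was called (edgeR adjusted p = 0.00808), in a fit that called 315 of 9085 such sums against 41 of 6247 with the filter. Both NT libraries with KCl were at 0 counts for it and both resting ones at 14.

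No member's KCl response passed a test of its difference between the vector cultures and NT, or between WT and the vector. In both tests of the difference 0.0% of all genes were called (edgeR), while 1845 and 768 had an unadjusted p under 0.05 and DESeq2 called 9 and 0. Members with an unadjusted p under 0.05 numbered 3 and 0.

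The next comparison asked how loss of Smarcc2 changed the 8 genes at DIV18. At rest Smarce1 and Smarcd3 rose in KO with vector against NT, where 5.9% of all genes were called and 2.13% were called higher. Under KCl no member was called (lowest adjusted p = 0.403, edgeR), where edgeR called 2.67% of all genes. DESeq2 called no member either, beside 922 of all genes. No member had an unadjusted p under 0.05, beside 3466 of all 20940 genes. Averaged over both states Smarce1 rose, and 11.2% of all genes were called and 4.21% higher.

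Smarce1 stood at 28.54 and 31.94 CPM in resting NT libraries and at 43.14, 38.51 and 42.67 CPM with vector. All 3 vector libraries lay above both NT libraries, and the log2 fold change was 0.45 ± 0.0946 SE (edgeR adjusted p = 0.00897). Under KCl NT stood at 33.21 and 33.99 CPM and vector at 36.81, 33.32 and 34.61 CPM, which overlap (log2 fold change 0.06 ± 0.0943 SE). The difference between the states, which is the difference between the responses to KCl, was -0.40 ± 0.133 SE with an adjusted p of 0.472, so it did not pass.

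Smarcd3 stood at 41.8 and 38.36 CPM in resting NT and at 61.99, 61.62 and 49.1 CPM with vector, also without overlap. The log2 fold change was 0.52 ± 0.152 SE (edgeR adjusted p = 0.0486), and averaged over states 0.29 ± 0.107 SE (adjusted p = 0.0856). The averaged change passed when the fit held only these groups (0.0445), without a low-count filter (0.0131), without vector resting replicate 3 (0.043) and with the replicate number as a block (0.00378). Smarcd3 shares 2466 of its 5120 annotated exon bases with Chpf2 on the opposite strand, and Smarcd3-208 shares 642 of its 1712. Whether the authors' counting used strand is not given in the sources used here, so counts of the pair may be mixed. Chpf2 itself had a log2 fold change of 0.21 ± 0.0895 SE at rest (adjusted p = 0.19).

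Neither call at rest held without NT replicate 1 (edgeR adjusted p = 0.104 for Smarce1 and 0.121 for Smarcd3) or without NT replicate 2 (0.0598 and 0.419), nor when the fit held only these groups (0.079 and 0.0778) or with length offsets (0.119 and 0.113). That of Smarcd3 was also lost without vector replicate 1 (0.127) or 2 (0.117). The averaged call of Smarce1 was lost without a low-count filter (0.078), with length offsets (0.191), and without NT resting replicate 1 (0.109), NT KCl replicate 1 (0.0778) or NT KCl replicate 2 (0.0645). Markers of other cells also differed between resting NT and resting vector. Summed oligodendrocyte-lineage markers ran from 202 to 213.3 CPM in resting NT and from 135.4 to 152.3 CPM with vector, where Sox10 was at 0 counts, and 5 of the 9 tested of 10 were called lower. Summed astrocyte markers ran from 1409 to 1640 CPM and from 909 to 1274 CPM (1 of 8 called lower), and summed markers of progenitors and dividing cells from 68.09 to 89.25 CPM and from 20.89 to 51.38 CPM (3 of 8 lower). Neuronal markers overlapped at rest, from 5235 to 5356 CPM and from 4944 to 5693 CPM. Under KCl, where neither gene was called, markers differed too. Summed astrocyte markers ran from 1304 to 1800 CPM in NT and from 755.3 to 879.4 CPM with vector (3 of 8 lower). Those of progenitors and dividing cells ran from 46.34 to 81.64 CPM and from 33.54 to 37.65 CPM, with none called. Oligodendrocyte-lineage sums overlapped, from 131.8 to 215.6 CPM and from 114.3 to 133.6 CPM (3 of 9 lower). The part of these shifts in the rise of Smarce1 and Smarcd3 was not tested.

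**Figure D4:**
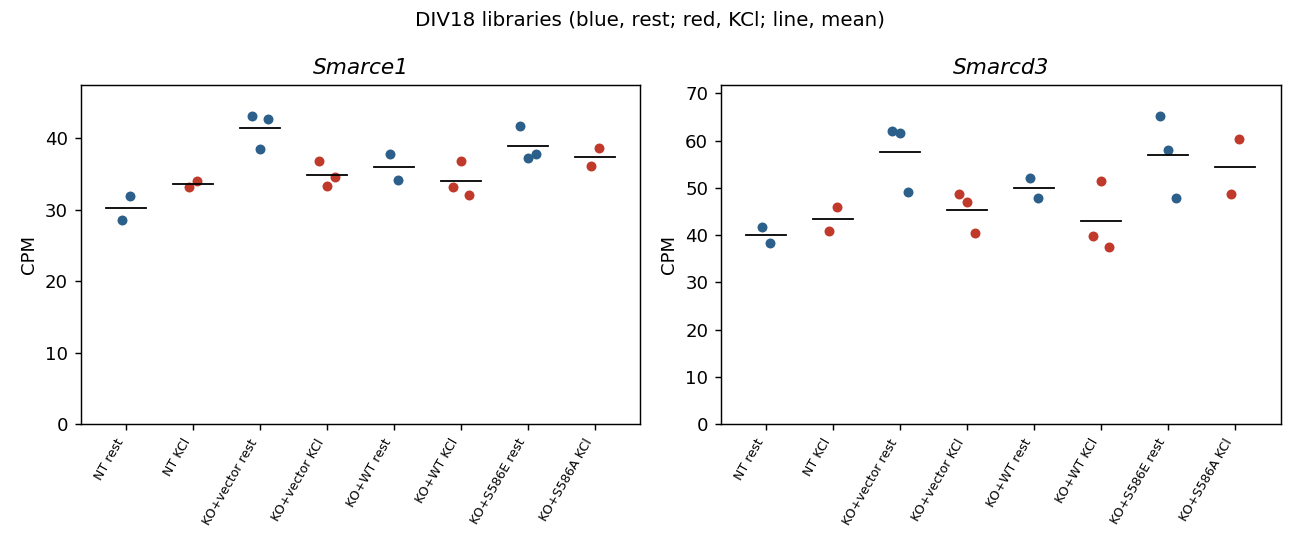
CPM (vertical axis, from 0) of Smarce1 and Smarcd3 in the 20 DIV18 libraries by group (horizontal axis); points are libraries, blue at rest and red with KCl, and lines are group means. The resting NT libraries of Smarce1 (28.54 and 31.94 CPM) are its lowest, and the resting vector and S586E libraries of both genes lie above resting NT.

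The other 6 members were not called for loss of Smarcc2. At rest their log2 fold changes ran from -0.29 for Bcl7c to 0.20 for Bcl7a (adjusted p from 0.155 to 0.941, edgeR). Among the transcripts, tested over both states, none of 36 was called, and 1.18% of all transcripts were called. Of the 36, 7 had an unadjusted p under 0.05, which was not counted over all transcripts. At gene level 2 members and 5346 of all 20940 genes had such a p. The main coding form of Smarce1 had a log2 fold change of 0.22 (adjusted p = 0.242). Of the 21 other BAF subunits, Smarcc2 (-2.23), Brd9 (-0.36) and Arid1a (0.41) were called at rest, and Smarcc2 (-2.42) and Smarca2 (-0.51), an ATPase of the complex, under KCl. Averaged over states Arid1a (0.33), Dpf2 (0.19) and Arid2 (0.17) were called higher and Smarcc2 (-2.32) and Smarca2 (-0.41) lower.

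The added-back Smarcc2 lay above NT, which averaged 251.0 CPM at rest and 278.1 CPM with KCl. It averaged 786.2 CPM for WT and 1225 CPM for S586E at rest, and 907.1 CPM for WT and 1322 CPM for S586A with KCl, so these arms also differed in the level of Smarcc2 RNA. With Smarcc2 added back, none of the 8 genes passed against the vector (edgeR). Members with an unadjusted p under 0.05 numbered 1, 0 and 0 for WT (rest, KCl and average), 0 for S586E and 2 for S586A. Of all 20940 genes, 2316, 835 and 2542 had such a p for WT, 1560 for S586E and 2730 for S586A. For wild-type Smarcc2 the edgeR background was 0.0143% of all genes at rest, 0.00955% under KCl and 0.138% averaged over states. For S586E it was 0.0191% at rest and for S586A 0.00955% under KCl. DESeq2 called no member, beside 182, 6 and 366 of all genes for WT, 51 for S586E and 252 for S586A. Resting Smarce1 was at 37.72 and 34.09 CPM with WT, between NT and vector, and neither difference passed (against vector -0.21 ± 0.0938 SE, adjusted p = 0.429, and against NT 0.25 ± 0.103 SE, adjusted p = 0.542). Resting Smarcd3 was at 52.09 and 47.85 CPM with WT, and its difference from the vector was -0.21 ± 0.150 SE (adjusted p = 0.654). Against NT, no member passed for WT at rest (0.105% of all genes) or under KCl (0.201%). DESeq2 called no member, beside 114 and 321 of all genes. An unadjusted p under 0.05 was found for 1 and 0 members, beside 1650 and 2300 of all 20940 genes.

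The substituted proteins were compared with WT in the 1 state in which each was sequenced. No member passed between S586E and WT at rest or between S586A and WT under KCl, where 0 and 1 had an unadjusted p under 0.05. In both comparisons 0.0% of all genes were called by edgeR, 2696 and 1824 genes had an unadjusted p under 0.05, and DESeq2 called 323 and 11. The members' log2 fold changes lay between -0.40 and 0.19 for S586E, and between -0.22 and 0.34 for S586A.

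Against NT at rest, S586E had Smarce1 higher, at 41.74, 37.17 and 37.72 CPM (log2 fold change 0.36 ± 0.0943 SE, edgeR adjusted p = 0.0457), where 2.78% of all genes were called and 1.04% higher. Leaving out any single library of the 2 groups ended this call (adjusted p from 0.0715 to 0.347). Smarcd3, at 65.25, 58.07 and 47.75 CPM, did not overlap NT but missed the threshold (0.51 ± 0.151 SE, adjusted p = 0.0764) and passed with DESeq2 (0.0256) and without a low-count filter (0.00101). Length offsets (0.284), a fit of these groups alone (0.0859) and no low-count filter (0.0846) also ended the call of Smarce1. The resting comparisons with NT share the same 2 NT libraries. For S586A against NT under KCl no member passed (edgeR), where edgeR called 0.43% of all genes. DESeq2 called no member, beside 353 of all genes. None of the members had an unadjusted p under 0.05, beside 2472 of all 20940 genes.

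Across the 20 DIV18 libraries the Pearson correlations of log2 CPM were highest between Smarcd3 and Smarce1 (0.80), Bcl7a and Smarcd3 (0.75) and Bcl7a and Smarce1 (0.65). Those between Bcl7c and the other 7 were all negative, from -0.63 with Smarcd3 to -0.26 with Smarcd1. The points share library, construct and state, so these are descriptions. Among 12884 protein-coding genes, those most like each member over the 20 libraries included Pja1 (r = 0.92) and Pnmal2 (0.91) for Smarcd3, Arid1b (0.89) for Bcl7a, Ndufb2 (0.88) and Kctd4 (0.85) for Smarce1, and Prr18 and Lrrc3 (0.86 each) for Bcl7c. They also included Mrpl4 (0.85) and Egln1 (0.82) for Smarcd1, Ddx24 (0.85) and Eef1a2 (0.84) for Bcl7b, Lyrm7 (0.79) and Got2 (0.77) for Smarcd2, and Enpp2 (0.75) and Tarsl2 (0.74) for Smarcb1. Arid1b, a subunit of canonical BAF, is the 1 gene of this list that is itself a BAF subunit.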

How the data were processed

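Per the submitters' processing notes, FastQC, cutadapt and kallisto were used; versions, genome build and annotation are not given in the sources used here. Per the file headers, the authors deposited for each library the length, effective length, estimated count and TPM of 142552 transcripts. The deposited estimated counts came from the authors' kallisto runs, in which reads shared by transcripts are divided among them, and the deposited TPM values scale these by effective length. Here 141429 transcripts (99.2%) matched GENCODE M21 (GRCm38), and gene totals of their estimated counts were rounded to whole numbers.

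Tests were edgeR 4.0.16 quasi-likelihood F tests (R 4.3.3, two-sided) with TMM and filterByExpr, called at an adjusted p under 0.05. Fits covered DIV7 (4 libraries, 19822 genes), DIV18 (20 libraries, 20940 genes) and, for the difference between ages, DIV7 with NT (8 libraries, 21072 genes); 22 comparisons were made. CPM values are TMM-normalised. SE was derived from the F statistic. The tests were checked on simulated counts. Alternatives were DESeq2 1.42.0, size factors by median of ratios, a replicate block, no filter on low counts, only the groups compared, length offsets, coding transcripts only and leaving out each library; where an arm kept 1 library, it was assumed to vary like the other groups. The members and lists were chosen with earlier results of these data known, and the retained-intron fits after the values were seen, in the order given in the text.

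The genes named are the 8 members, Smarcc2, called genes of 21 other BAF subunits, 4 activity genes and, per member, the 2 most correlated coding genes with a mean of at least 1 CPM and no predicted-gene symbol, of which 1 is not reported here. Chpf2, Sox10 and named transcripts were added after their values were seen. Same-numbered libraries were checked for pairing by correlating deviations from group means over 11236 genes (DIV18). All 3 pairs passed 0.1 for vector rest and KCl (0.13, 0.24 and 0.40), vector and WT under KCl (0.28, 0.28 and 0.46), and vector and S586E at rest (0.39, 0.26 and 0.38). No replicate pair agreed within sampling noise (chi-square per degree of freedom from 5.59 to 36.1). Counting error aside, the error of assigning reads to similar transcripts is not in the tests.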

Additional observations from a re-analysis of the deposited data

Results flagged for a closer look

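In the main fit the response of Smarcd2 to KCl differed between the ages by a test of the difference itself. The DIV7 response minus the NT response at DIV18 was -1.24 on the log2 scale (edgeR adjusted p = 0.0233), with Smarcd2 lower in both KCl libraries at DIV7 than in both resting ones and overlapping groups at DIV18. The call was lost with length offsets (edgeR adjusted p = 0.0533) and with coding transcripts only (0.0572). It was also lost without any single DIV7 library or without NT resting replicate 2, although the estimates stayed between -1.27 and -1.10. Age, RNA selection and genetic manipulation cannot be told apart in this difference. Fos, Fosb and Egr1 also responded less in NT at DIV18 than at DIV7, while Npas4 was not called for this difference. The part of these weaker responses in the difference for Smarcd2 was not tested.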

How the results depend on the processing

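No alternative reversed a called value. With length offsets the counts of members called were 0 for KO with vector against NT at rest and averaged over states, 0 for S586E against NT and 0 for the difference between ages, which was also 0 with coding transcripts only. In fits of only the groups compared they were 0 for KO at rest, 2 averaged over states and 0 for S586E. DESeq2 gave 2 for S586E, where it called 1097 of all genes against 583 in the main fit. Without a low-count filter 4 members were called at DIV7, and 1 retained-intron sum at DIV18, beside 315 of all 9085 such sums. The shares of all genes called with length offsets, without the filter or with only the groups compared are not given here. These counts of members therefore cannot be set against the background of the same fit. Of the retained-intron sums at DIV7, 1 was called when they were fitted alone and 1 with DESeq2, with 17.9% and 21.6% of all such sums called lower. Leaving out single libraries gave 1 to 3 members at DIV7, 0 to 2 for KO at rest, 0 to 2 averaged over states, 0 for S586E, 0 to 1 for the difference between ages, 1 to 3 retained-intron sums and 1 to 2 sums of other transcripts. Over coding transcripts the family shares at DIV7 were 53.6% for Smarcd1, 3.5% for Smarcd2, 42.9% for Smarcd3, 37.4% for Bcl7a, 30.8% for Bcl7b and 31.8% for Bcl7c, and at DIV18 40.2% for Bcl7a and 40.0% for Bcl7b. The cause of these shifts was not tested.

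With the replicate number as a block, 5 members were called at DIV7 (Bcl7a, Bcl7b and Smarcd3 with edgeR adjusted p of 0.000368, 0.0136 and 0.0245 besides Smarcd1 and Smarcd2), while calls over all genes went from 17.0% to 29.5%. Of the sums of other transcripts at DIV7 the block called 4 members, and 10.3% of all such sums were called lower, against 7.17%. It called 2 members for KO averaged over states (Smarcd3 0.00378), with 12.6% of all genes against 11.2%, and 2 for S586E against NT (Smarcd3 0.00988), with 4.42% against 2.78%. Same-numbered DIV7 libraries correlated at 0.32, but with 2 pairs, and NT has 2 pairs with each other group, so the numbers are not shown to pair these groups. In comparisons between vector states, vector and WT under KCl, and vector and S586E, each with 3 pairs, the block changed no member's call. The NT numbers at rest and under KCl correlated at -0.23, and with them crossed 6 genes and 0 members were called, against 8 genes with the block and 2 without it. Smarcd2 and several retained-intron sums rest on few counts, which limits their precision.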
